A study of Homo sapiens with 31 samples.

Results

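The 36 genes described here encode the machinery that copies DNA and the factors that start S phase, the part of the cell cycle in which the genome is copied. They were chosen by name, as genes of origin licensing, the replication fork, nucleotide supply and the E2F programme. For each gene the probe set annotated to that symbol alone was used, and where a gene had several, the one with the highest mean over all arrays. All 36 were measured, out of 17314 genes in the table, and 1 of them, UHRF1, had more than 1 probe set.

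The RNA came from tumours of PC3, an established human prostate carcinoma line, grown as xenografts. The parental line, called wt, had been kept in culture and was not passaged in animals. A3, D3 and D4 are lines re-isolated after growth in animals, and each is a single clone. Cyclophosphamide (CPA) is a prodrug that the liver turns into a DNA-crosslinking agent. By their labels the D clones resist it, whereas wt and A3 respond to it. Tumours of each line were either left untreated as controls or exposed to CPA at 120 mg/kg, given intraperitoneally once they averaged 30 mm3. The 8 groups of line and treatment held 4 arrays each, except untreated A3, which held 3. All groups share the PC3 background and growth as tumours. The labels do not say that each array is a separate animal and give no batch, so p-values measure only the spread between these arrays.

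Before S phase, origins of replication are licensed: CDC6 and CDT1 load the ring of MCM proteins onto DNA. At the start of S phase CDC45 and the GINS complex join that ring and turn it into the active helicase, and polymerases, the clamp PCNA and its loader follow. E2F transcription factors and cyclin E drive this step, and many genes of the machinery are themselves E2F targets, so their mRNA is known to rise and fall with the share of cells that are entering S phase.

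Levels below are log2 RMA values from the deposited table, so a difference of 1 is a 2-fold change, and members are compared between groups, not with each other. A difference is given with its standard error (SE) and called at an adjusted p under 0.05 in limma, after Benjamini-Hochberg adjustment over all 17314 genes. The array medians lay between 6.59 and 6.73, and arrays of a group correlated with each other, over all genes, at 0.985 to 0.997. Probe sets differ in response, so the marker levels that follow are given only as measured, with their rank among all genes. The epithelial list held KRT8, KRT18, KRT19 and VIM at percentiles of 94.7, 95.1, 96.8 and 99.1. EPCAM ranked at 78.5 (level 8.59) and CDH1 only at 34.4 (level 6.27). The prostate secretory genes KLK3 and KLK2, which PC3 is known to lack, averaged 5.93 and 5.85, at percentiles of 28.6 and 27.2. Of the 7 fibroblast genes, DCN and LUM ranked at the 1.48 and 1.12 percentiles, PDGFRB at 26.5, COL3A1 at 62.3, PDGFRA at 79, and COL1A2 and COL1A1 at 90.1 and 94.7. The 5 endothelial genes ran from 14.5 (VWF) to 78.8 (KDR), with PECAM1 at 48.7, and the 6 myeloid genes from 1.21 (PTPRC) to 79.6 (CD68). The host lists are thus mixed, and they do not show how much host tissue the tumours held. In whole tumours, fewer cells of a type and less RNA per cell cannot be told apart.

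Because many of these genes are known E2F targets, their promoters were searched for E2F letters. RefSeq promoter windows on GRCh38.p14, running from 250 bases before to 50 after each start, were found for 32 of the 36 genes; MCM4, MCM5, GINS4 and CCNE2 had none in the table. The letters TTTCCCGC and TTTGGCGC are forms of the core of E2F sites. Either of them stood on either strand in 16 of these 32 windows (50%), against 631 of 27305 windows of all genes (2.31%). Other forms of the core were not searched, so a window without a match may still hold one. TTTCCCGC was in 9 (28.1%, against 1.66% of all windows) and TTTGGCGC in 7 (21.9%, against 0.659%). CCAAT, the core of NF-Y sites, was in 17 of 32 (53.1%, against 35.7%), and in no member did it overlap an E2F match. A match is only a string of letters, and no match says only that these letters are absent from the window. The windows of 5 genes that the results turn on are printed 5′ to 3′ on the gene's own strand, with E2F matches in capitals: CDC6 (chr17:40287629-40287928, plus strand), GINS2 (chr16:85688905-85689204, minus strand), MCM6 (chr2:135876394-135876693, minus strand), POLA1 (chrX:24693668-24693967, plus strand) and POLA2 (chr11:65261712-65262011, plus strand).
CDC6: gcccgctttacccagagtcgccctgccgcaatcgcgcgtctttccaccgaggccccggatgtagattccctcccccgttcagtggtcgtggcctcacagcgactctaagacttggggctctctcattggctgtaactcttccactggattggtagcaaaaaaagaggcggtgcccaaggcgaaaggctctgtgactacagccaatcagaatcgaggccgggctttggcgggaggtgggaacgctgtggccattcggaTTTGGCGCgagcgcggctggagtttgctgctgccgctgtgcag
GINS2: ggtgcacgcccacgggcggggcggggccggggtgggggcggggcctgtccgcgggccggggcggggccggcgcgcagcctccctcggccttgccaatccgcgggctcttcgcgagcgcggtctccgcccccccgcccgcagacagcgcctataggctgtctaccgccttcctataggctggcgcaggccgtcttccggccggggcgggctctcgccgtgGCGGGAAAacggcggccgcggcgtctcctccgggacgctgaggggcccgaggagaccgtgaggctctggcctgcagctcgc
MCM6: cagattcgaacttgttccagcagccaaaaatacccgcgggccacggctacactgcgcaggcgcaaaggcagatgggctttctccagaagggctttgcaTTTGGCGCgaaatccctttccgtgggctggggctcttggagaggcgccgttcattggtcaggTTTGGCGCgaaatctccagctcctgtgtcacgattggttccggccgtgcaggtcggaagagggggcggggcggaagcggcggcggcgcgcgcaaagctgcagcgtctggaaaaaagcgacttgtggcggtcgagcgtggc
POLA1: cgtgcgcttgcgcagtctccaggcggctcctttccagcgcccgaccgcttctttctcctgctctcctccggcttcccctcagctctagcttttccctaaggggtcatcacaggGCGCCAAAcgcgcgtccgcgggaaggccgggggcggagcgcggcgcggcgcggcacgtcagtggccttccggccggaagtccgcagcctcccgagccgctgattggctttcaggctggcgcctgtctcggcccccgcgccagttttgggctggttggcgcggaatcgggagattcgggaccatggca
POLA2: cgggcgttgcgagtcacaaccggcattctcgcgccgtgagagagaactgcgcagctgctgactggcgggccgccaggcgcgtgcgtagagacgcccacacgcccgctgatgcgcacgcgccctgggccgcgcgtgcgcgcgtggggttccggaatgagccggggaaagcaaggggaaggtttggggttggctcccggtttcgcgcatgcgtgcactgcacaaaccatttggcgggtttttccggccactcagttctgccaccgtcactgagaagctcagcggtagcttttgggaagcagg
MCM6 holds 2 matches, CDC6, GINS2 and POLA1 hold 1 each, and POLA2 holds none. The medians of the 16 genes with a match and the 16 without one were 0.54 and 0.59 for untreated A3 against wt, 0.47 and 0.42 for D3, and 0.48 and 0.45 for D4. For CPA against untreated they were 0.17 and 0.32 in wt, 0.16 and 0.25 in A3, -0.01 and 0.15 in D3, and 0.21 and 0.25 in D4.

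Across the 8 groups, untreated wt had the lowest mean for 32 of the 36 genes. The exceptions were MCM5, MCM6 and E2F2, lowest in CPA-treated wt, and POLA1, lowest in untreated D3. CPA-treated A3 was highest for 20 genes and CPA-treated D4 for 12; MCM5 and UHRF1 peaked in untreated A3, and MCM6 and CCNE1 in untreated D3. The mean over the 36 genes was 8.4 ± 0.14 (SD, n = 4) in untreated wt and 8.62 ± 0.113 (SD, n = 4) with CPA. It was 8.96 ± 0.0617 (SD, n = 3) in untreated A3 and 9.14 ± 0.0531 (SD, n = 4) with CPA. D3 stood at 8.84 ± 0.0397 untreated and 8.89 ± 0.0694 with CPA, and D4 at 8.86 ± 0.082 and 9.08 ± 0.0652 (SD, n = 4 each). The step from wt to any clone was thus larger than the spread within groups.

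**Figure D1:**
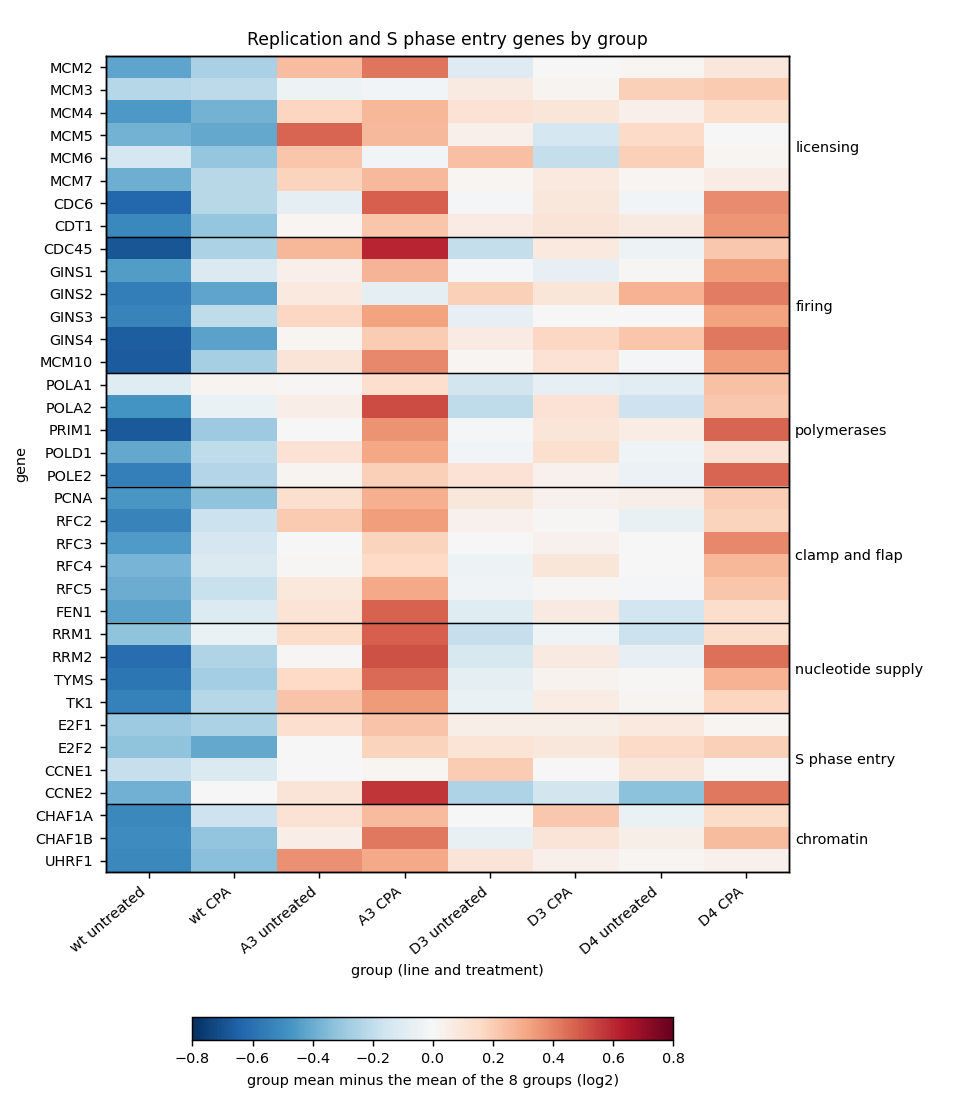
Heat map of the group means of 36 genes (rows, by role) in 8 groups (columns); the colour gives the group mean minus the mean of the 8 groups on the log2 scale, red above and blue below. Untreated wt is blue in nearly every row and is the lowest group for 32 of 36 genes, and CPA-treated A3 is the highest for 20.

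The spread within a group was also shared by the genes. In untreated wt, 34 of 36 genes lay below the group mean in replicate 3 and 33 lay above it in replicate 4. In CPA-treated wt, 34 lay below it in replicate 3. In D3 with CPA, 33 lay above it in replicate 2 and 31 below it in replicate 5, and in untreated D4, 30 lay below it in replicate 1. The 36 genes are therefore not 36 independent readings of a tumour. CDC45, PRIM1, CDC6 and RRM2 covered the widest range of group means (1.29, 1.14, 1.12 and 1.12), and POLA1 and CCNE1 the narrowest (0.38 and 0.39).

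The first question is how the passaged clones differ from the unpassaged line without drug. In untreated A3 31 of the 36 genes were higher than in wt and none was lower, where 10.1% of all genes were called higher and 8.36% lower. In untreated D3 33 were higher and none lower (9.69% and 8.4% of all genes), and in untreated D4 also 33 and none (9.22% and 10.9%). The median difference over the 36 genes was 0.57 in A3 (1.48-fold), 0.46 in D3 (1.37-fold) and 0.47 in D4 (1.38-fold), while the medians of all genes were 0.04, 0.01 and 0.05. The arrays of clone and wt did not overlap for 29, 32 and 25 members, where 13.9%, 11.9% and 8.81% of all genes lay entirely higher. The 3 comparisons share the wt arrays, so they are not independent of each other. In A3 POLE2 lost its call without untreated A3 replicate 1, RFC4 also without wt replicate 1, and MCM6 without either of those or A3 replicate 4. In D3 POLD1 lost its call without wt replicate 3, POLA2 without wt replicate 1 or 3, and RFC4 without either of those or D3 replicate 2 or 5. In D4 POLE2 lost its call without wt replicate 1 or 3 or D4 replicate 5, MCM6 without wt replicate 1 or D4 replicate 5, and POLD1 without wt replicate 3 or D4 replicate 4. FEN1 lost it there without D4 replicate 4, and CCNE1 without wt replicate 2 or 4 or D4 replicate 4. The other calls in these 3 comparisons were kept without any single array.

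**Figure D2:**
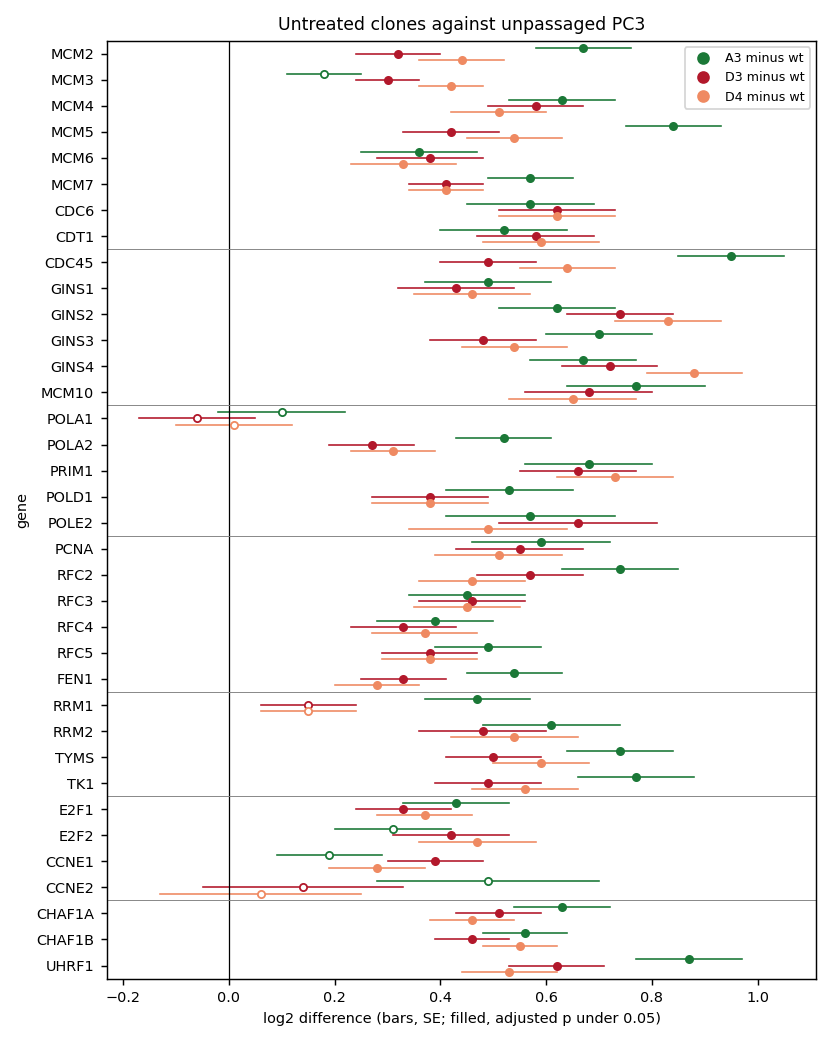
Difference between each untreated clone and untreated wt (horizontal axis, log2; bars are SE) for the 36 genes by role; filled points have an adjusted p under 0.05 in limma. Only POLA1 in D3 lies left of 0, and A3 (green) lies to the right of D3 and D4 for CDC45, MCM5, UHRF1 and RRM1.

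Licensing genes were higher in all 3 clones, with medians of 0.57 in A3, 0.41 in D3 and 0.47 in D4 over 8 genes. MCM5, a subunit of the helicase ring, had levels of 8.97, 9.0, 8.80 and 9.06 in untreated wt against 9.66, 9.82 and 9.91 in A3. It read 9.36, 9.33, 9.44 and 9.37 in D3 and 9.46, 9.51, 9.64 and 9.37 in D4. No clone array overlapped wt, and A3 stood above both resistant clones. The difference from wt was 0.84 ± 0.09 SE in A3 (1.79-fold, adjusted p = 1.66e-07 in limma), 0.42 ± 0.09 in D3 and 0.54 ± 0.09 in D4. CDC6, the loader whose promoter is printed above, read 8.33, 8.87, 8.36 and 8.88 in wt, 9.24, 9.12 and 9.15 in A3, 9.25, 9.29, 9.18 and 9.19 in D3, and 8.98, 9.32, 9.28 and 9.30 in D4. Its wt arrays fell into a low and a high pair, and even the high pair lay below every clone array. CDC6 was 0.57 ± 0.12 SE higher in A3 and 0.62 ± 0.11 SE higher in both D3 and D4. CDT1, the other loader, was higher by 0.52, 0.58 and 0.59 in A3, D3 and D4, MCM2 by 0.67, 0.32 and 0.44, MCM4 by 0.63, 0.58 and 0.51, and MCM7 by 0.57, 0.41 and 0.41. MCM6 was higher by 0.36, 0.38 and 0.33. MCM3 was higher in D3 (0.30) and D4 (0.42), and its difference of 0.18 ± 0.07 SE in A3 was not called (adjusted p = 0.058 in limma).

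Among the genes that fire origins, all 6 were higher in each clone, with medians of 0.69, 0.58 and 0.65. CDC45 had the largest difference of all members in A3. It read 7.74, 8.0, 7.69 and 8.0 in untreated wt and 8.80, 8.79 and 8.83 in A3. In D3 its levels were 8.29, 8.29, 8.31 and 8.49, and in D4 8.42, 8.56, 8.53 and 8.48. The 3 A3 arrays lay within 0.04 of each other and above every D3 and D4 array. CDC45 was 0.95 ± 0.10 SE higher in A3 (1.93-fold, adjusted p = 7.24e-08 in limma), 0.49 ± 0.09 SE in D3 and 0.64 ± 0.09 SE in D4. GINS4, a GINS subunit, was highest in D4: its levels were 7.57, 7.65, 7.48 and 7.86 in wt, 8.36, 8.38 and 8.20 in A3, 8.18, 8.35, 8.4 and 8.50 in D3, and 8.34, 8.53, 8.73 and 8.48 in D4. The D4 difference was 0.88 ± 0.09 SE (1.84-fold, adjusted p = 3.99e-08 in limma), against 0.67 ± 0.10 in A3 and 0.72 ± 0.09 in D3. GINS2 had the same order, with 0.62, 0.74 and 0.83. GINS1 (0.49, 0.43 and 0.46), GINS3 (0.70, 0.48 and 0.54) and MCM10, which helps to open the helicase (0.77, 0.68 and 0.65), completed the group.

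Polymerase subunits split. PRIM1, the primase that makes the RNA primer, was higher by 0.68 ± 0.12, 0.66 ± 0.11 and 0.73 ± 0.11 SE in A3, D3 and D4, and its arrays did not overlap those of wt. POLE2, a subunit of the leading-strand polymerase, was higher by 0.57, 0.66 and 0.49, and POLD1, the catalytic subunit of polymerase delta, by 0.53, 0.38 and 0.38. POLA2, the regulatory subunit of polymerase alpha, was higher by 0.52, 0.27 and 0.31. POLA1, the catalytic subunit of the same polymerase, was not called in any clone. It read 9.31, 9.66, 9.33 and 9.72 in wt, 9.72, 9.51 and 9.59 in A3, 9.33, 9.56, 9.42 and 9.48 in D3, and 9.29, 9.68, 9.40 and 9.68 in D4. The groups overlap throughout, and the differences of 0.10, -0.06 and 0.01 have SEs of 0.12, 0.11 and 0.11; the 95% intervals run from -0.13 to 0.34, -0.27 to 0.16 and -0.21 to 0.23. Its promoter, printed above, holds an E2F match.

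The clamp and its partners were higher in every clone, all 6 of them, with medians of 0.51, 0.42 and 0.42. PCNA, the sliding clamp, was higher by 0.59, 0.55 and 0.51. Of the clamp loader subunits RFC2 was higher by 0.74, 0.57 and 0.46, RFC3 by 0.45, 0.46 and 0.45, RFC4 by 0.39, 0.33 and 0.37, and RFC5 by 0.49, 0.38 and 0.38. FEN1, the nuclease that trims Okazaki fragments, was higher by 0.54 in A3, 0.33 in D3 and 0.28 in D4.

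Genes of nucleotide supply were higher in A3 (4 of 4), and 3 of 4 were higher in each resistant clone. Thymidylate synthase (TYMS) and thymidine kinase (TK1), which supply thymidine nucleotides, were higher by 0.74 and 0.77 in A3, 0.50 and 0.49 in D3, and 0.59 and 0.56 in D4. RRM2, the small subunit of ribonucleotide reductase, was higher by 0.61, 0.48 and 0.54. RRM1, the large subunit, read 10.01, 10.36, 10.22 and 10.49 in wt and 10.89, 10.58 and 10.76 in A3. It read 10.41, 10.45, 10.33 and 10.47 in D3 and 10.25, 10.49, 10.39 and 10.55 in D4. Only the A3 arrays lay wholly above wt. RRM1 was 0.47 ± 0.10 SE higher in A3, and its difference of 0.15 ± 0.09 SE in each resistant clone was not called (adjusted p = 0.345 in D3 and 0.275 in D4, limma).

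Of the 4 factors that drive S phase entry 1 was higher in A3 and 3 in each of D3 and D4. E2F1 was higher by 0.43, 0.33 and 0.37 in A3, D3 and D4. E2F2 was higher in D3 (0.42) and D4 (0.47), and its 0.31 ± 0.11 SE in A3 was not called (adjusted p = 0.0532 in limma). CCNE1, a cyclin E, was higher in D3 (0.39) and D4 (0.28), with 0.19 in A3 (not called). CCNE2, the other cyclin E, had no call in any clone and the widest spread: 7.09, 7.78, 7.41 and 7.79 in wt, 8.28, 7.51 and 8.25 in A3, 7.64, 7.83, 7.45 and 7.70 in D3, and 7.75, 7.75, 6.85 and 7.96 in D4. A single low array stands apart in A3 and in D4. The differences of 0.49, 0.14 and 0.06 have SEs of 0.21, 0.19 and 0.19.

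Chromatin assembly followed the fork. CHAF1A and CHAF1B, subunits of the histone chaperone that packs new DNA, were higher by 0.63 and 0.56 in A3, 0.51 and 0.46 in D3, and 0.46 and 0.55 in D4. UHRF1, which guides maintenance methylation to new DNA, read 8.82, 8.78, 8.68 and 8.85 in wt and 9.68, 9.73 and 9.56 in A3, and was 0.87 ± 0.10 SE higher (1.83-fold); in D3 and D4 it was higher by 0.62 and 0.53. The other UHRF1 probe set was dim, with a mean of 6.18 over all arrays against 9.29. It showed no difference that was called in any comparison: between untreated A3 and wt it differed by 0.02 ± 0.13 SE (adjusted p = 0.951 in limma). The platform annotation pairs the bright set with RefSeq mRNAs and the dim set with none.

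**Figure D3:**
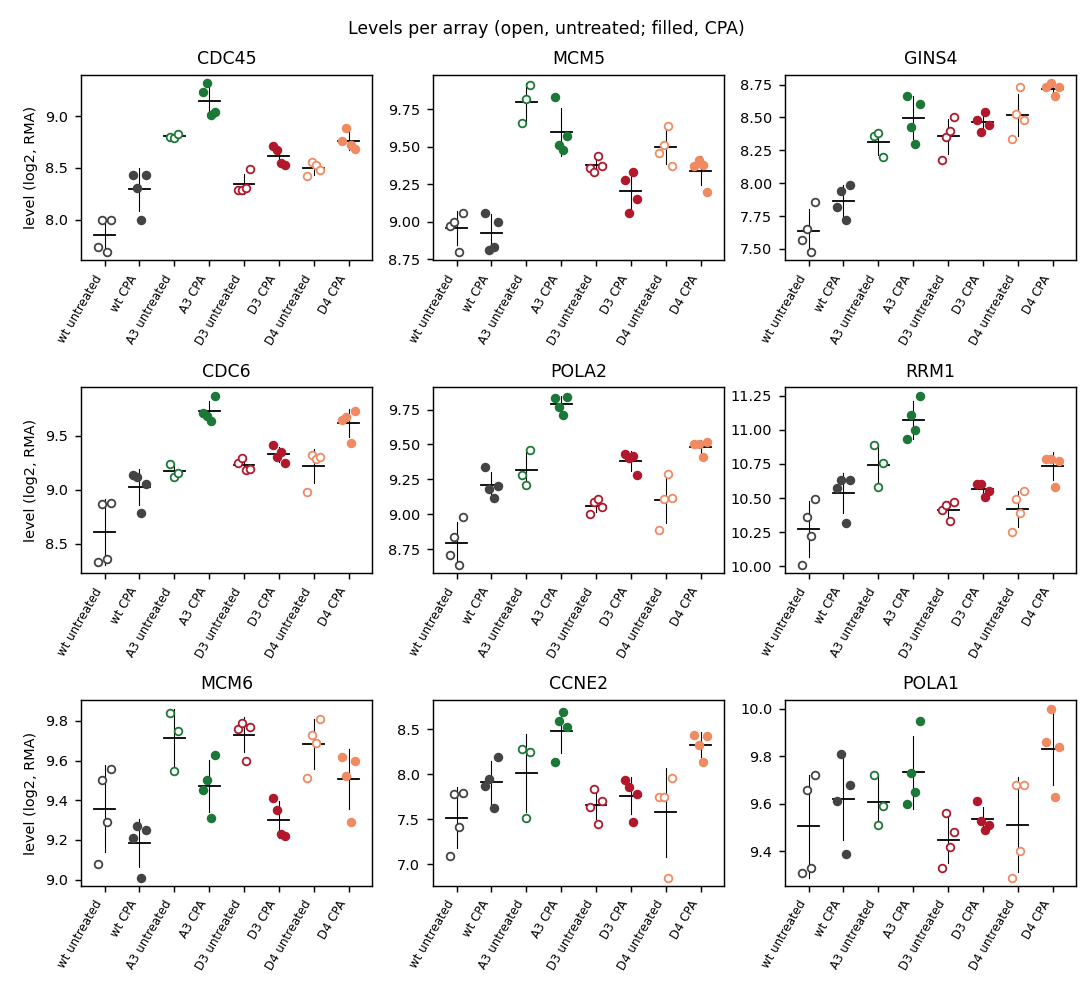
Levels of 9 genes on each array (vertical axis, log2 RMA value, scaled per gene) in the 8 groups; open points are untreated, filled points CPA-treated, horizontal bars are group means and vertical bars the SD. CDC45, MCM5, GINS4 and CDC6 sit lowest in wt, POLA1 overlaps between lines, and POLA2 lies higher in treated arrays of every line. MCM6 means lie lower with treatment without a call, and its arrays overlap except in D3.

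With CPA 33 of 36 were higher in A3 than in wt (6.74% of all genes called higher), 20 in D3 (6.28%) and 32 in D4 (7.54%), and none was lower (9.6%, 10.1% and 7.59% of all genes were). The medians were 0.55, 0.29 and 0.42. CDC45 was 0.86 higher in A3, 0.32 in D3 and 0.47 in D4, and GINS4 0.63, 0.59 and 0.85. In D3 the clamp loader genes, RRM1, RRM2 and TK1 were not called, and of the GINS genes GINS2 and GINS4 were called. The D3 count rested on single arrays: without wt replicate 3 it was 9, and without D3 replicate 2 it was 12. Leaving out any 1 array also lowered the counts in A3 (27 to 30) and D4 (26 to 31). In A3 MCM3 and MCM6 lost their calls without any of 7 of the 8 arrays, and CCNE2 and POLE2 without any of 6. In D4 E2F1 and POLD1 lost theirs without any of 7.

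Other genes of the pathway were read from lists beside the members. For scale, 10.1%, 9.69% and 9.22% of all genes were called higher in untreated A3, D3 and D4 than in wt. The shares called lower were 8.36%, 8.4% and 10.9%. Of 39 further genes of the replication machinery 25 were higher in untreated A3 than in wt, 18 in D3 and 19 in D4, and 0, 0 and 1 were lower. The origin recognition subunit ORC1 was higher by 0.79, 0.73 and 0.69, RNASEH2A, which removes RNA from DNA, by 0.69, 0.56 and 0.56, the fork protein TIMELESS by 0.62, 0.49 and 0.55, and the methyltransferase DNMT1 by 0.55, 0.51 and 0.46. Of 15 measured genes of nucleotide synthesis 9 were higher in each clone and 1, 2 and 1 lower. MTHFD1, a folate enzyme, was higher by 0.49, 0.44 and 0.49, and the gene lower in D4 was SAMHD1 (-0.45). Of 17 activators of the G1 to S step 8, 8 and 7 were higher and 2, 0 and 4 lower. MYBL2 (0.86, 0.72 and 0.73), CDC25A (0.76, 0.66 and 0.51) and CCNA2 (0.66, 0.68 and 0.64) were higher in each clone. E2F5 was lower in A3 (-0.42) and D4 (-0.4), and TFDP2 was lower in D4 (-0.6). Of 16 measured inhibitors 2, 1 and 2 were higher and 3, 3 and 2 lower, without a common direction. CDKN2B, an inhibitor of the cyclin D kinases, differed by -0.62, -0.33 and -0.30, and RBL1 was higher by 0.45, 0.54 and 0.49. Of 28 measured mitosis genes 22, 19 and 20 were higher and none lower, so the higher levels were not limited to S phase genes. DTYMK, E2F6, CDKN2C, MAD2L1 and CENPA were not analysed here.

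Markers of other cells were read on the same arrays. Their probe sets are annotated to human genes, so RNA of the animal host and RNA of the PC3 cells cannot be told apart by them. The mean of the 7 fibroblast genes ran from 6.94 to 7.02 on untreated wt arrays and from 6.66 to 6.87 on A3, and that of the 6 myeloid genes from 5.44 to 5.64 and from 5.49 to 5.62. In untreated A3 KRT8, EPCAM and CDH1 of the 6 epithelial genes were lower than in wt, and the endothelial list had KDR and PECAM1 lower. CDH1, COL3A1 and KDR were lower in each clone, and LUM was lower in A3. Other genes of these lists were higher: CD68 in A3, COL1A1 in D3 and TEK in D4. In D4 the myeloid genes CD68 and LYZ were also called, 1 higher and 1 lower. The part of these genes in the differences of the members was not tested.

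The central contrast of the series sets the resistant clones, as the mean of D3 and D4, against A3, which was also passaged but stayed sensitive. In untreated tumours the resistant clones had lower levels of 5 of the 36 genes (2.04% of all genes were lower) and none was higher (1.85%), with a median of -0.11. The 5 were CDC45 (-0.38 ± 0.09 SE, 1.31-fold lower), MCM5 (-0.36 ± 0.08 SE, 1.29-fold lower), RRM1 (-0.33 ± 0.09 SE, 1.25-fold lower), UHRF1 (-0.30 ± 0.09 SE, 1.23-fold lower) and MCM2 (-0.29 ± 0.08 SE, 1.23-fold lower). Their adjusted p-values in limma were 0.00835, 0.00849, 0.0374, 0.0484 and 0.0214. For each of them but MCM2 all 8 resistant arrays lay below all 3 A3 arrays, which held for 2.89% of all genes. MCM2 read 9.40, 9.52 and 9.59 in A3, 9.11, 9.11, 9.22 and 9.15 in D3, and 9.25, 9.23, 9.44 and 9.16 in D4, so that 1 D4 array lay among those of A3. MCM3 went the other way (0.17 ± 0.06 SE, all resistant arrays higher) and was not called (adjusted p = 0.119 in limma).

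These 5 calls rest on few arrays and on A3 being 1 clone. Without untreated A3 replicate 4 none of them was left; without A3 replicate 1 or 2, D3 replicate 1 or 3, or D4 replicate 1, 3 were. UHRF1 was the least stable, lost without any of 10 of the 11 arrays and under 6 of 9 other settings; RRM1 was lost without 5 arrays and under 3 settings, and MCM2 without 2 arrays and under 2 settings, 1 of them the replicate block. The resistance label and the other differences between these clones cannot be told apart.

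With CPA the resistant clones were lower for 9 genes (3.87% of all genes were lower) and higher for 1 (4.23% higher), with a median of -0.18. CDC45 read 9.23, 9.32, 9.01 and 9.04 in A3, 8.71, 8.67, 8.55 and 8.53 in D3, and 8.76, 8.89, 8.72 and 8.68 in D4, which leaves A3 above both clones without overlap. Its difference was -0.46 ± 0.08 SE (1.38-fold lower, adjusted p = 0.000265 in limma). RRM1 read 10.93, 11.11, 11.00 and 11.25 in A3 and at most 10.79 in the resistant clones, a difference of -0.42 ± 0.08 SE (1.34-fold lower). MCM2 (-0.38), FEN1 (-0.36), POLA2 (-0.36), MCM5 (-0.33), TYMS (-0.29), UHRF1 (-0.26) and CHAF1B (-0.25) were lower as well. GINS2 was the only gene of the 36 that was higher (0.33 ± 0.09 SE, 1.25-fold, adjusted p = 0.0195 in limma), reading 7.72, 7.59, 7.56 and 7.50 in A3, 7.82, 7.98, 7.80 and 7.45 in D3, and 8.17, 8.13, 7.93 and 8.05 in D4. The D4 arrays lay above those of A3, and D3 overlapped them. CDC45, RRM1, MCM2, FEN1 and POLA2 kept their calls without any single array, whereas GINS2 lost its call without A3 replicate 2, 3 or 4. MCM5 lost its call without A3 replicate 1, CHAF1B without A3 replicate 4, and TYMS without A3 replicate 1 or 2. UHRF1 lost its call without any of 5 of the 12 arrays and under 2 of 9 settings, the replicate block and the dim probe set.

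MCM2, MCM5, CDC45, RRM1 and UHRF1 were lower in the resistant clones in both arms, as were 264 of all genes (1.52%). The arms use different arrays but the same clones and a shared estimate of the spread, so they are not independent. Between untreated D4 and D3, 0 of 36 genes were called in limma (0.323% of all genes were) and 0 had an unadjusted p under 0.05, with differences between -0.16 and 0.16. With CPA, a comparison added after the values were seen, the mean of the 36 genes ran from 8.8 to 8.97 on D3 arrays and from 9.0 to 9.14 on D4 arrays. There 4 genes were higher in D4 (4.56% of all genes were) and none was lower (3.49%), and D4 arrays lay wholly higher for 10 (11.8%). The 4 were GINS1 (0.40 ± 0.11 SE, adjusted p = 0.0296 in limma), PRIM1 (0.36), RFC3 (0.35) and GINS3 (0.33), and the mean of D3 and D4 used above averages over them. No member was called without D3 replicate 4 or 5 or D4 replicate 1 or 2, 1 was without D4 replicate 5, 2 were without D3 replicate 2, and 10 genes were without D4 replicate 4. Of the lists, ASF1B, a histone chaperone, and MCMBP, which binds the MCM ring, were lower in the resistant clones in both arms (-0.37 and -0.25 untreated, -0.44 and -0.40 with CPA). CDKN2B was higher in both (0.30 and 0.29), and so was E2F3 (0.30 and 0.25). No mitosis gene was called in either arm, but untreated 26 of the 28 were negative, with a median of -0.17, beside -0.11 and 26 of 36 for the replication genes. With CPA the 2 lists parted: 11 of the 28 mitosis genes were negative, with a median of 0.04, beside -0.18 and 29 of 36 for the replication genes. The epithelial genes KRT8 and EPCAM were higher in the resistant clones in both arms; their part in these differences was not tested.

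With CPA most of the 36 genes had small positive differences and few were called. In wt 1 gene was called higher (POLA2, where 0.00578% of all genes were called higher, that is POLA2 alone), in A3 3 were (0.104%), in D3 none (0%) and in D4 3 (0.664%); no member was called lower in any line (0.0404%, 0.248%, 0.231% and 0.364% of all genes were). The median difference between treated and untreated tumours of wt, A3, D3 and D4 was 0.25, 0.18, 0.07 and 0.24, against medians of all genes between -0.03 and 0.01. In D3, 7 of 36 had an unadjusted p under 0.05, of which 5 were higher, where 12.8% of all genes had one. The numbers in wt, A3 and D4 were 21, 14 and 22, of which 21, 12 and 22 were higher, where 3.38%, 6.68% and 21.9% of all genes had one. Positive differences were found for 33, 32, 23 and 32 members in wt, A3, D3 and D4, where 54.1%, 48.9%, 53% and 42.8% of all genes had one. Treated arrays lay wholly above untreated ones for 7, 10, 5 and 13 members (1.34%, 2.3%, 3.96% and 4.14% of all genes), and wholly below for 2 in D3 (5.64%). In all 4 lines 23 of 36 members had a positive difference (7.2% of all genes did), and the 4 lines share no arrays.

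POLA2 gave the clearest response. Untreated wt arrays read 8.71, 8.84, 8.64 and 8.98 and treated ones 9.34, 9.18, 9.12 and 9.20; in A3 the values were 9.28, 9.21 and 9.46 against 9.83, 9.77, 9.71 and 9.84. In D3 they were 9.0, 9.09, 9.11 and 9.05 against 9.43, 9.40, 9.42 and 9.28, and in D4 8.89, 9.11, 9.29 and 9.12 against 9.50, 9.50, 9.41 and 9.52. In every line all treated arrays lay above all untreated arrays. The difference was 0.42 ± 0.08 SE in wt (1.34-fold, adjusted p = 0.0401 in limma), 0.47 ± 0.09 in A3 (1.38-fold, adjusted p = 0.00573), 0.38 ± 0.08 in D4 (1.30-fold, adjusted p = 0.0158) and, without a call, 0.32 ± 0.08 in D3 (1.25-fold, adjusted p = 0.105). CDC45 also lay wholly higher with treatment in each line, by 0.43, 0.34, 0.27 and 0.26 in wt, A3, D3 and D4, without a call (adjusted p = 0.0713, 0.213, 0.279 and 0.116 in limma).

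CDC6 rose in A3, from 9.24, 9.12 and 9.15 to 9.71, 9.68, 9.64 and 9.87 (0.55 ± 0.12 SE, 1.47-fold, adjusted p = 0.0193 in limma). In D3 it read 9.41, 9.30, 9.35 and 9.25 with treatment, which overlaps the untreated arrays (0.10 ± 0.11 SE, not called), and the differences of 0.42 in wt and 0.39 in D4 were not called. CHAF1B rose in A3 as well (0.37 ± 0.08 SE, 1.29-fold, adjusted p = 0.018 in limma). In D4 CCNE2 rose from 7.75, 7.75, 6.85 and 7.96 to 8.44, 8.32, 8.13 and 8.42 (0.75 ± 0.19 SE, 1.68-fold, adjusted p = 0.0492 in limma). The low untreated array, replicate 4, widens that difference, and the call was lost without it, as it was without any of 4 other arrays. RRM2 rose in D4 from 8.55, 9.03, 9.11 and 9.07 to 9.54, 9.32, 9.26 and 9.68 (0.51 ± 0.12 SE, 1.42-fold, adjusted p = 0.0372 in limma), and in A3 it differed by the same 0.51 without a call (adjusted p = 0.125).

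These calls depend on single arrays and settings. Each CPA call was lost when only the arrays of that line were fitted, and in D4 CCNE2 was lost under 5 and RRM2 under 4 of 9 settings, the replicate block among them. The POLA2 call in wt was lost without any of 6 of the 8 arrays, namely untreated replicates 1, 2 and 3 and treated replicates 1, 2 and 5, and without treated replicate 3 the wt count was 3. In A3 the count was 0 without untreated replicate 1 and 1 without untreated replicate 2 or 4 or treated replicate 4. In D4 it was 0 without untreated replicate 1 or treated replicate 1, 2 or 5, 7 without untreated replicate 2 or treated replicate 4, and 6 without untreated replicate 5.

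MCM6 and MCM5 ran against the rest: they had a negative difference in all 4 lines, as 7.05% of all genes did. MCM6 read 9.08, 9.50, 9.29 and 9.56 in untreated wt and 9.21, 9.27, 9.01 and 9.25 with CPA, and in D3 9.76, 9.79, 9.60 and 9.77 against 9.41, 9.35, 9.23 and 9.22. In each line all 4 treated arrays lay below the untreated mean, and in D3 below every untreated array. The differences were -0.17, -0.24, -0.43 and -0.18 in wt, A3, D3 and D4, with SEs of 0.10, 0.11, 0.10 and 0.10, and none was called (adjusted p = 0.0648 in D3 by limma). For MCM5 they were -0.03, -0.20, -0.17 and -0.15, also without a call. The other MCM ring genes differed by 0.02 to 0.17 in wt and by -0.05 to 0.10 in D3, without a call. GINS2, E2F1, E2F2, CCNE1 and UHRF1 were positive in 2 lines and not in the other 2, and the largest of these differences was -0.20 (CCNE1 in D3).

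Genes of mitosis went the other way on the same arrays. Of 28 measured, 5, 13, 14 and 7 were called lower in wt, A3, D3 and D4, and none higher. Among all genes 0.0404%, 0.248%, 0.231% and 0.364% were called lower. The medians of the mitosis genes were -0.30, -0.52, -0.48 and -0.21. The mitotic kinesin KIF20A fell by 1.0, 1.44, 1.28 and 1.11 on the log2 scale, the kinase PLK1 by 0.93, 1.26, 1.10 and 0.96, and cyclin B1 (CCNB1) by 0.65, 1.04, 0.97 and 0.78. The mean of the 28 genes in A3 was 9.32 ± 0.11 (SD, n = 3) untreated and 8.72 ± 0.0552 (SD, n = 4) with CPA, over which the 36 replication genes went from 8.96 to 9.14. Of the 39 other machinery genes DONSON, which stabilises forks, rose in A3 (0.47) and D4 (0.45), and DNA2, DSCC1, POLD3 and POLE rose in D4. Of the G1 to S inhibitors E2F7 rose in A3 (0.44) and RBL1 in D4 (0.46). No gene of the epithelial, fibroblast, endothelial or myeloid lists was called with CPA in any line.

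**Figure D4:**
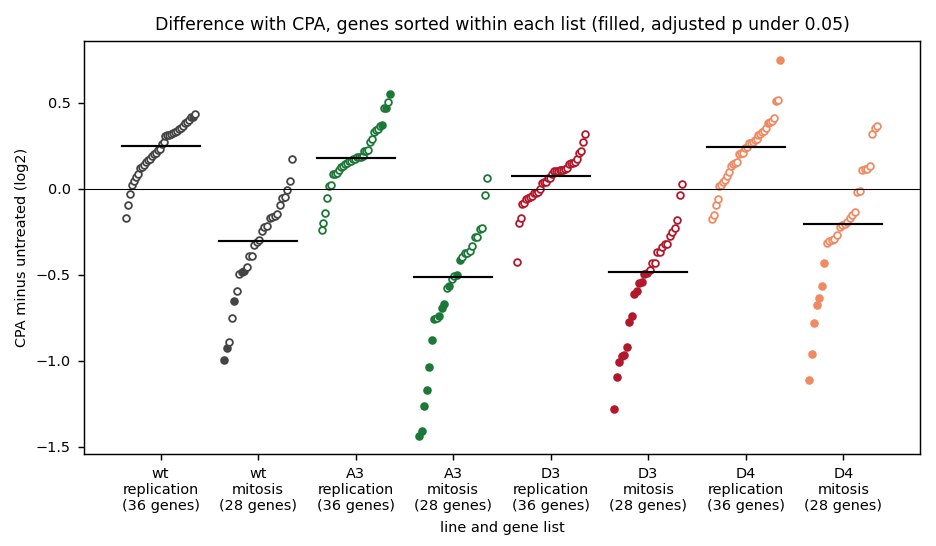
Difference between CPA-treated and untreated tumours (vertical axis, log2) for the 36 replication genes and 28 mitosis genes in each line, sorted within each list, with the list median as a bar; filled points have an adjusted p under 0.05 in limma. Replication medians lie between 0.07 and 0.25 and mitosis medians between -0.52 and -0.21.

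Whether the response to CPA differs between lines was tested directly. For the mean response of the 3 clones against that of wt, 0 of 36 genes were called in limma (0% of all 17314 genes), and 0 had an unadjusted p under 0.05, where 464 of all genes did. For the resistant clones against A3, 0 were called (0% of all genes) and 2 had an unadjusted p under 0.05, where 520 of all genes did: CDC6 with -0.30 ± 0.14 SE (95% interval -0.59 to -0.02) and CHAF1B with -0.19 ± 0.09 SE. The median over the 36 genes was -0.07 in the first test and -0.06 in the second, with 31 and 26 genes negative. Of all genes 44.8% and 48.5% were positive. In simulated data with differences of 0.5, 59% were called in the first test and 41% in the second. Differences of that size can therefore be missed. D3 alone was not tested against the other lines.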

How the data were processed

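Total RNA from the tumours was hybridised to Affymetrix whole-transcript arrays. The deposited values are log2 RMA expression per probe set, per the submitters' processing notes; RMA corrects background, normalizes by quantiles and summarises probes, and its version is not given in the sources used here. Of 32 planned arrays the submitters left out 1 as an outlier. The table holds 23989 probe sets, of which 17624 had 1 gene symbol, 411 several and 5954 none; 276 genes had more than 1 probe set, and the one with the highest mean was kept, leaving 17314 genes.

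One limma fit (version 3.58.1, R 4.3.3; lmFit and eBayes) covered 31 arrays in 8 groups with 23 residual degrees of freedom, and 16 contrasts were drawn from it, 1 of them (D4 against D3 with CPA) added after the values were seen. Adjusted p-values are Benjamini-Hochberg values over all genes. The fit was tested on simulated data. The 36 members, the other gene lists and the tests were chosen with earlier results of these data known. All members are accounted for; in each comparison the rule names the called members with the largest differences, up to 12 in each direction, any member whose other probe set gives another call, and up to 6 called genes of each other list by smallest p. Members outside that rule were named after their values were seen. Promoter windows come from RefSeq on GRCh38.p14, and 7 members had more than 1, of which the first was used. Alternatives changed the arrays in the fit, the scaling, the gene filter, the variance model, the probe set and the replicate block, and left out each array in turn; leaving out the 4 arrays farthest from their groups was chosen after seeing the data.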

Additional observations from a re-analysis of the deposited data

Results flagged for a closer look

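In 259 sets of 4 arrays (a gene in a group, or the mean of the 36 genes), 19 had 1 array far from the other 3 by Dixon's test, which chance alone gives in about 1 in 20. In CPA-treated wt these were TYMS in replicate 1 (9.45) and FEN1 in replicate 3 (8.95), and in CPA-treated A3 GINS3 in replicate 3 (8.93). In untreated D3 they were MCM4 in replicate 2 (9.1), MCM6 in replicate 3 (9.6) and CDC45 in replicate 5 (8.49). In CPA-treated D3 replicate 2 stood apart for MCM4 (9.24), MCM7 (10.45) and E2F1 (8.23), and replicate 5 for TYMS (9.25), POLA2 (9.28) and RFC2 (9.1). In untreated D4 replicate 1 stood apart for MCM4 (8.84), CDC6 (8.98), RRM2 (8.55) and the mean of the 36 genes (8.74). In CPA-treated D4 they were CDT1 in replicate 5 (7.74), and RRM1 (10.58) and POLA2 (9.41) in replicate 4.

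The GINS2 difference with CPA had opposite signs in the sensitive lines, 0.13 ± 0.10 SE in wt and -0.14 ± 0.11 SE in A3. Every treated array lay above the untreated mean in wt and below it in A3. Neither difference was called, and the difference between them was not tested.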

How the results depend on the processing

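Of 144 counts of called members (16 comparisons under 9 settings), 116 stayed within 1.5 times the reported count and 28 did not. For resistant clones against A3, untreated (5 reported), the count was 2 with only the groups compared, 3 with the replicate block, 10 with array weights, 3 with median centring and 2 without the 4 farthest arrays. For CPA in wt (1 reported) it was 0 with only the groups compared and with median centring, and 2 without the dimmest 30% of genes and with a variance trend. In A3 (3 reported) it was 0 with only the groups compared, 5 with array weights and 6 with further quantile normalization. In D3 (0 reported in limma, with 7 at an unadjusted p under 0.05) it was 2 with array weights and 1 each with quantile normalization, without the dimmest genes, with the trend and without the 4 farthest arrays. In D4 (3 reported) it was 0 with only the groups compared, 1 with the replicate block, 10 with array weights, 1 with median centring, 7 without the dimmest genes and 0 without the 4 farthest arrays. For D4 against D3 with CPA (4 reported) it was 9 with only the groups compared, 17 with array weights, 0 with quantile normalization, 9 without the dimmest genes and 2 without the 4 farthest arrays. The cause was not tested. The share of all genes called under each setting is not given here. A changed count is therefore not a result about the members alone. With the dim probe set every UHRF1 call was lost; its difference was 0.04 untreated and 0 with CPA in the resistant clones against A3, and -0.05 for D4 against wt with CPA. Leaving out 1 array at a time gave 28 to 33, 30 to 33 and 30 to 33 for untreated A3, D3 and D4 against wt, and 27 to 30, 9 to 21 and 26 to 31 with CPA. It gave 0 to 7 (untreated) and 7 to 11 (CPA) for resistant clones against A3. For CPA it gave 0 to 3 in wt, 0 to 3 in A3, 0 to 0 in D3 and 0 to 7 in D4, and for D4 against D3 with CPA 0 to 10. Replicate numbers did not pair the samples: of 25 pairs of groups sharing at least 3 numbers, 2 had every same-numbered correlation over 0.1 (range -0.661 to 0.6), so the block is no paired design. The number of arrays, 3 or 4 in a group, limits precision.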
